A study of Mus musculus with 2 samples.

Results

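The genes described here are 10 genes by which resident large peritoneal macrophages of the mouse are recognised: *Gata6*, *Timd4*, *Vsig4*, *Prg4*, *Icam2*, *Selp*, *Rarb*, *Lyve1*, *Folr2* and *Adgre1*. They were taken as all probe sets annotated to exactly 1 of these genes, which gave 15 probe sets for 10 of the 18193 genes with such a probe set. Their levels were compared between 1 CSF1 array and 1 control array. Both held RNA of peritoneal macrophages of wild-type, 8-week-old male C57BL6 mice, obtained by lavage a week after an intraperitoneal injection of 0.2 ml of 10% thioglycolate medium, an irritant that draws inflammatory cells into the cavity. The cells were grown in dishes in medium with fetal bovine serum to 80% confluence, then given 100 ng/ml CSF1 (macrophage colony-stimulating factor) for 12 h or kept for the same time without it. As a model, both samples are elicited and cultured cells, taken with no sorting that the labels mention, and the labels do not say whether animals were pooled or shared between the samples.

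In the undisturbed peritoneal cavity, most macrophages are large, long-lived cells of embryonic origin that express F4/80 (the product of *Adgre1*) at a high level. Their identity is kept by the transcription factor GATA6, whose expression depends on retinoic acid made by cells of the surrounding mesothelium and omentum. During inflammation these cells become scarce in lavage fluid, and smaller, monocyte-derived macrophages with more MHC class II and CCR2 take their place. CSF1, acting through its receptor CSF1R, is needed for the survival and proliferation of resident macrophages.

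In these elicited cells, 8 of the 10 genes gave signal above background on both arrays, *Timd4* on the CSF1 array only and *Lyve1* on neither. Each gene was counted by its brightest probe set, and by the same rule 8967 of all 18193 genes were above background on both arrays. Relative to control, the receptor genes *Folr2* and *Vsig4* were 1.51-fold and 1.37-fold higher on the CSF1 array, and the lubricin gene *Prg4* and the adhesion gene *Icam2* were 1.88-fold and 1.36-fold lower. *Gata6*, *Rarb*, *Selp* and *Adgre1* differed by less than the disagreement between probe sets of a gene. No measured member was 2-fold higher or lower. With 1 array per group there was no replicate, so no test, p-value or standard error could be given, and precision is limited by the number of arrays.

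The promoters of 3 members are shown here as examples: *Rarb* is both a retinoic acid receptor gene and a target of retinoic acid, and *Folr2* and *Vsig4* had the highest ratios among the members. Whether any motif bears on a ratio was not tested. Promoter windows of 5 of the 10 members were matched by symbol. Sequences are the 250 bases before a transcript start, from RefSeq on GRCm38.p6, 5′ to 3′ on the gene's strand, with motif letters in capitals. The capitals mark the retinoic acid receptor motif in *Rarb*, searched as 2 copies of GTTCA in the same orientation with any 6 bases between them, the Maf recognition core TGCTGA in *Folr2* and the core of the PU.1 motif, GAGGAA, in *Vsig4*. For *Folr2*, which has 2 starts in the table, the start inside the gene is shown. The *Rarb* start shown also lies inside its gene, which spans bases 16430839 to 17082331 of chromosome 14.
Rarb, chr14:16575477-16575726, minus strand: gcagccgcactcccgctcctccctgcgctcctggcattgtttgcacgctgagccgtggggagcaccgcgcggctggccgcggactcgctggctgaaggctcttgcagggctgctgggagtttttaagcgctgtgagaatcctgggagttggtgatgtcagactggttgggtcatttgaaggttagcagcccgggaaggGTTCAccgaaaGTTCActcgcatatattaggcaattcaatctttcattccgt
Folr2, chr7:101845332-101845581, minus strand: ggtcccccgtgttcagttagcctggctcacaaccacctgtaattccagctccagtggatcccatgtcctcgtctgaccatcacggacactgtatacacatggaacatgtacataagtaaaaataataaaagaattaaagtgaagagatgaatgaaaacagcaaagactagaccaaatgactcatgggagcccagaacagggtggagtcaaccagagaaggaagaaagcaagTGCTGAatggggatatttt
Vsig4, chrX:96293439-96293688, minus strand: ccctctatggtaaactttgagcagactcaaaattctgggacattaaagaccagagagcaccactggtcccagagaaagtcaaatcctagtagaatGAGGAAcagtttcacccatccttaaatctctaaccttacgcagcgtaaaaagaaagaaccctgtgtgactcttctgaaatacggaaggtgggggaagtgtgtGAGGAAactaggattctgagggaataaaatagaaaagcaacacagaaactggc
Both strands were searched, and the motifs do not overlap one another in these windows. The retinoic acid receptor motif, a direct repeat of the kind that retinoic acid receptors bind, lay 52 to 37 bases before the *Rarb* start shown. It was present in 22 of 32851 such windows of all genes (0.067%). The Maf core occurred in 16.1% of windows and the PU.1 core in 23.3%. Among the members, the Maf core was also present in the *Timd4* window and before the other *Folr2* start. The GATA motif AGATAA, searched in the same way, occurred in 10.0% of all windows and in none of the windows of *Rarb*, *Folr2*, *Vsig4*, *Timd4* and *Selp*. A match describes letters in a window and does not show that a factor binds there.

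Each array held 45101 probe sets, on a linear intensity scale on which the authors' values had an equal trimmed mean of 500.003 units. A level of 176.16 units was used as background, set at the 90th percentile of the values of 136 probe sets whose 84 genes belong to other tissues, and lower values were raised to it. At least 1 array was above it for 16459 probe sets with 1 gene symbol, and a ratio with 1 side at this level is a bound. The median log2 ratio of CSF1 over control was -0.01 over these probe sets. Probe sets of 1 gene disagreed in log2 ratio with a pooled SD of 0.27 (3446 genes), an error that leaves out cultures and animals. Over the 14234 probe sets above background on both arrays, the SD of the log2 ratio was wider, at 0.35. The ratio of 3′ to 5′ signal of *Gapdh*, a sign of RNA integrity, was 1.40 on the CSF1 array and 1.03 on the control array, while that of *Actb* was 1.38 on the CSF1 array and 1.35 on the control array.

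**Figure D1:**
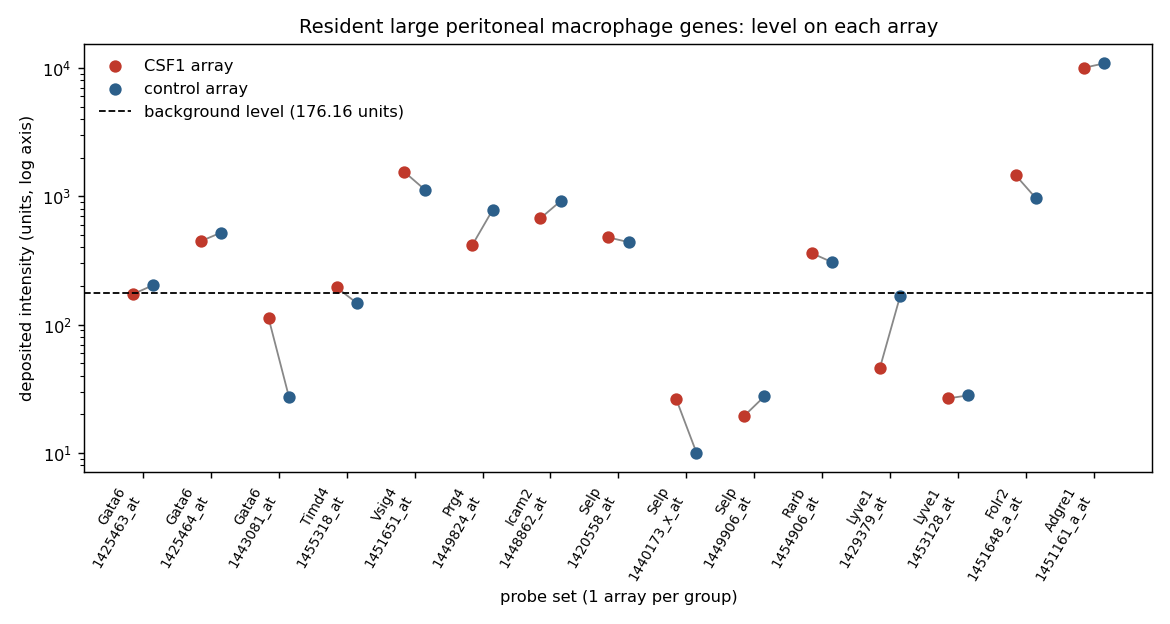
Deposited intensity (units, log axis) of the 15 probe sets on the CSF1 array (red, left) and the control array (blue, right), 1 point per array, with the background level of 176.16 units dashed. The pairs of 8 probe sets lie wholly above the line, 5 lie wholly below it, and 1 each of *Gata6* and *Timd4* straddle it.

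*Gata6* encodes the zinc-finger factor that maintains the peritoneal identity of resident macrophages. Its probe set 1425464_at had 447 units on the CSF1 array and 521 units on the control array, which is 2.54 and 2.96 times the background level. The log2 ratio was -0.22, within the spread between probe sets of a gene. A second probe set of the same source transcript, 1425463_at, had 173 units on the CSF1 array and 203 units on the control array, with the CSF1 value not above background, so that *Gata6* was at least 1.15-fold lower there. The 2 probe sets come from 1 cDNA and are not independent. Another, 1443081_at, designed from another sequence, was below background on both arrays, at 112 units on the CSF1 array and 27.3 units on the control array, and gives no ratio.

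*Rarb* encodes retinoic acid receptor beta, a nuclear receptor that retinoic acid itself induces through the direct repeat printed above. It had 360 units on the CSF1 array and 306 units on the control array, 2.04 and 1.74 times the background level. The log2 ratio of 0.23 lay within the pooled SD between probe sets.

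Among the surface receptor genes, *Vsig4* and *Folr2* had the highest ratios of all members. *Vsig4* encodes the complement receptor CRIg, which takes up particles coated with C3 fragments. It had 1546 units on the CSF1 array and 1127 units on the control array, 8.77 and 6.39 times background, with a log2 ratio of 0.46. *Folr2*, the gene of folate receptor beta, had 1460 units on the CSF1 array and 964 units on the control array, 8.29 and 5.47 times background. Its log2 ratio of 0.60 was the highest among the members, measured with a probe set of the _a_at type, which can match several transcripts. Both ratios exceeded the pooled SD between probe sets. Over the 2836 probe sets with mean levels of 800 to 1600 units, the SD of the log2 ratio was 0.32, and both ratios lie within 2 times that SD.

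*Timd4* encodes TIM-4, a receptor for phosphatidylserine by which resident macrophages bind apoptotic cells. It had 195 units on the CSF1 array, against 147 units on the control array, which was below background. This bounds its fold at 1.11 or more in favour of the CSF1 array, and its values as deposited had a log2 ratio of 0.41. Both values stand close to the background level, so the presence of the transcript rests on the choice of that level. With the level taken without *Afp*, *Mbp* and *Oxt*, which were well above it on both arrays, background was 141.84 units and *Timd4* was above it on both arrays.

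*Lyve1*, a hyaluronan receptor gene of lymphatic endothelium and of some resident macrophages, was not above background. Its probe set 1429379_at had 45.7 units on the CSF1 array and 167 units on the control array. Probe set 1453128_at, made from the same sequence, had 26.6 units on the CSF1 array and 28.1 units on the control array. The control value of the first lay just under the background level, and no fold is given. With the level of 141.84 units, this probe set was above background on the control array only.

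The adhesion genes differed from each other. *Icam2*, which encodes a ligand of leukocyte integrins carried by large peritoneal macrophages and endothelium, had 672 units on the CSF1 array and 917 units on the control array. Its log2 ratio was -0.45, beyond the pooled SD between probe sets, with levels 3.81 and 5.21 times background. Over the 3478 probe sets with mean levels of 400 to 800 units, the SD of the log2 ratio was 0.38, and this ratio lies within 2 times that SD. *Selp* encodes P-selectin, known from platelets and endothelium and also expressed by resident peritoneal macrophages. Its probe set 1420558_at had 479 units on the CSF1 array and 439 units on the control array, a log2 ratio of 0.12. Its 2 other probe sets were far below background, at 19.4 and 26.5 units on the CSF1 array and 27.6 and 10.1 units on the control array. One of these 2, 1449906_at, is annotated to the same source sequence as the detected probe set, so the probe sets of *Selp* disagreed on whether it was detected.

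*Prg4* encodes lubricin, a secreted glycoprotein that coats joint and serosal surfaces. It had 417 units on the CSF1 array and 784 units on the control array, 2.37 and 4.45 times background. The log2 ratio of -0.91 was the lowest among the members. It was more than 3 times the pooled SD between probe sets, and the SD of the log2 ratio over the 3478 probe sets with mean levels of 400 to 800 units was 0.38.

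*Adgre1*, the gene of F4/80, a general mouse macrophage marker that large peritoneal macrophages carry at a high level, had 10007 units on the CSF1 array and 10836 units on the control array. These levels were 56.8 and 61.5 times background, and the log2 ratio was -0.11.

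Among the 10 member probe sets above background on at least 1 array, 0 were higher and 0 lower by 2-fold or more, against 0.687% and 0.656% of all 16459 such probe sets. At 1.5-fold, 1 was higher (*Folr2*) and 1 lower (*Prg4*), against 4.96% and 4.99% of all. With 10 probe sets, these counts show nothing particular about the members. Of the 9 member genes above background on at least 1 array, 5 were higher and 4 lower, beside 50.8% and 49.2% of all 10107 measured genes. Their median log2 ratio was 0.12, beside 0.01 over all. Among the 8 above background on both arrays, 4 were higher and 4 lower, with a median of 0.00. Centred on the hybridisation spikes, ratios above background on both arrays moved up by 0.29, the median of all measured genes stood at 0.29, and *Gata6* and *Adgre1* had ratios of 0.07 and 0.18, so that directions here are relative to other genes.

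**Figure D2:**
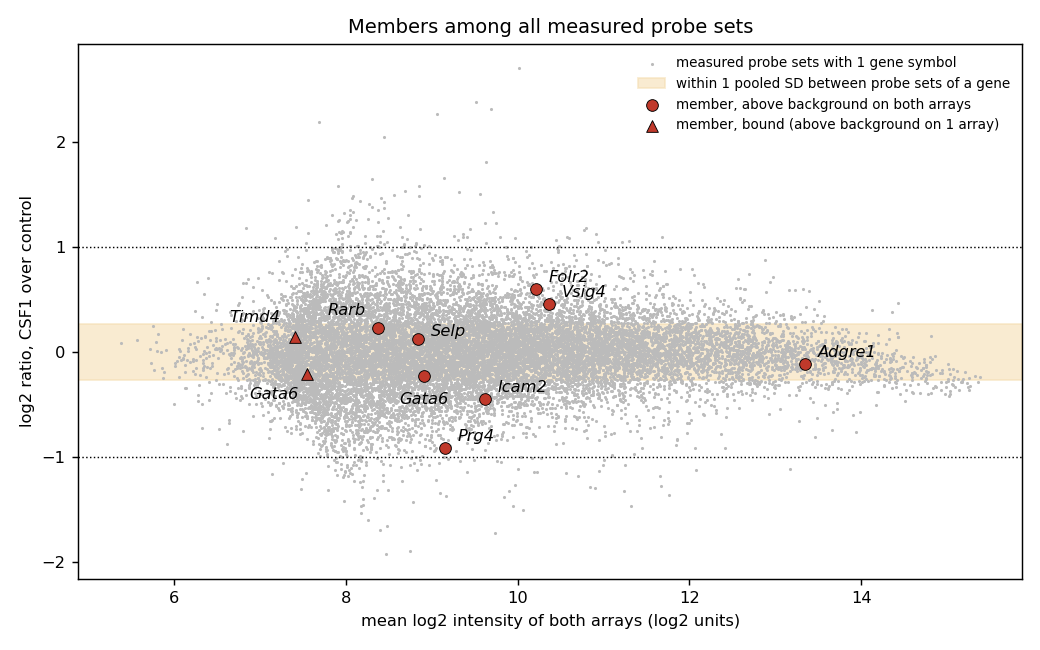
Log2 ratio of CSF1 over control against the mean log2 intensity of both arrays, for the 16459 probe sets above background on at least 1 array (grey) and the 10 member probe sets among them (red; triangles are bounds). The band is 1 pooled SD (0.27) and dotted lines mark 2-fold; *Folr2* and *Vsig4* lie above the band, *Prg4* and *Icam2* below it, and no member passes a dotted line.

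Further genes known from large peritoneal macrophages were mostly lower on the CSF1 array. Of 20 such genes analysed, 18 were measured, and 15 of these had a log2 ratio below 0, beside 49.2% of all measured genes. Their median was -0.35, beside 0.01 over all measured genes. The direction was not particular to this list, as medians were -0.21 for general macrophage markers and -0.25 for small peritoneal macrophage genes. The genes of this list at least 2-fold lower were *Thbs1* and *Cxcl13*, 2 of 18 beside 0.524% of all measured genes. *Thbs1*, which encodes the matrix protein thrombospondin-1, had 6276 units on the CSF1 array and 13552 units on the control array, and its 2 probe sets averaged -1.11 ± 0.0055 in log2 ratio (SD). *Cxcl13*, a B-cell attractant of peritoneal macrophages, had 399 units on the CSF1 array and 799 units on the control array, but its mean was -0.67 ± 0.47 over 2 probe sets. *Serpinb2*, which encodes an inhibitor of plasminogen activators, had 3973 units on the CSF1 array and 7458 units on the control array, 1.88-fold lower. *Nt5e*, the ecto-5′-nucleotidase CD73, was 1.71-fold lower.

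The 3 genes of this list with a ratio above 0 were *Marco*, *Fcna* and *Tgfb2*. *Marco*, a scavenger receptor gene, had 10295 units on the CSF1 array and 6265 units on the control array, and its 2 probe sets averaged 0.72 ± 0.0017 in log2 ratio (SD). *Fcna*, the gene of the lectin ficolin-A, had 1282 units on the CSF1 array and 950.3 units on the control array, 1.35-fold higher. *Tgfb2* stood at 0.00 on its brightest probe set, while 2 others were above background on the control array only, at least 1.65-fold and 1.21-fold lower. *Alox15* and *Garnl3* were not above background on either array.

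Other genes of macrophages that carry TIM-4, LYVE1 and FOLR2 in many tissues went both ways. Of 14, 11 were measured, 4 above 0 and 7 below, with a median log2 ratio of -0.03. *F13a1*, the A subunit gene of coagulation factor XIII, had 2145 units on the CSF1 array and 4851 units on the control array, 2.26-fold lower. *Gas6*, which encodes the bridging ligand of the TAM receptors, had 3157 units on the CSF1 array and 1693 units on the control array, 1.86-fold higher. *Stab1*, the scavenger receptor gene stabilin-1, had 727 units on the CSF1 array and 483 units on the control array, 1.51-fold higher, a ratio like that of *Folr2*. *Pf4* had a log2 ratio of -0.24. *Cd163*, *Cd209f* and *Mgl2* were not above background on either array.

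Retinoid genes were examined because *Gata6* and *Rarb* depend on retinoic acid. Of 18 analysed, 9 were measured, 4 above 0 and 5 below, with a median log2 ratio of -0.093 that was -0.35 when each gene's probe sets were averaged and 0.13 with no background level. *Aldh1a2*, which encodes an enzyme that makes retinoic acid, had 2019 units on the CSF1 array and 961 units on the control array. It was 2.10-fold higher, the only gene of this list past 2-fold, beside 0.643% of all measured genes. *Rxrb*, a partner receptor of the retinoic acid receptors, had 434 units on the CSF1 array and 807 units on the control array, 1.86-fold lower. *Tgm2*, a transglutaminase gene that retinoic acid induces in macrophages, had 12095 units on the CSF1 array and 20475 units on the control array, and its 5 measured probe sets averaged -0.75 ± 0.22 in log2 ratio (SD). *Nrip1*, a nuclear receptor corepressor gene, had a mean of -0.56 ± 0.29 over 4 probe sets. *Rxra* stood at -0.09, and *Rara* and the retinoic acid-degrading enzyme genes *Cyp26a1* and *Cyp26b1* were not above background. *Aldh1a2* and *Tgm2* thus had ratios of opposite sign. Those of *Gata6* and *Rarb*, -0.22 and 0.23, lay within the pooled SD between probe sets of a gene. Whether any of these ratios are linked was not tested.

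Among the other GATA factors and their partners, *Gata2* had 274 units on the CSF1 array and 186 units on the control array, and *Zfpm2*, a GATA cofactor gene, had 262 units on the CSF1 array and 182 units on the control array. *Zfpm1* was above background on the CSF1 array only, with a bound of 1.09-fold. *Gata1*, *Gata3*, *Gata4* and *Gata5* were not above background, and all 3 measured genes lay close to that level on the control array.

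**Figure D3:**
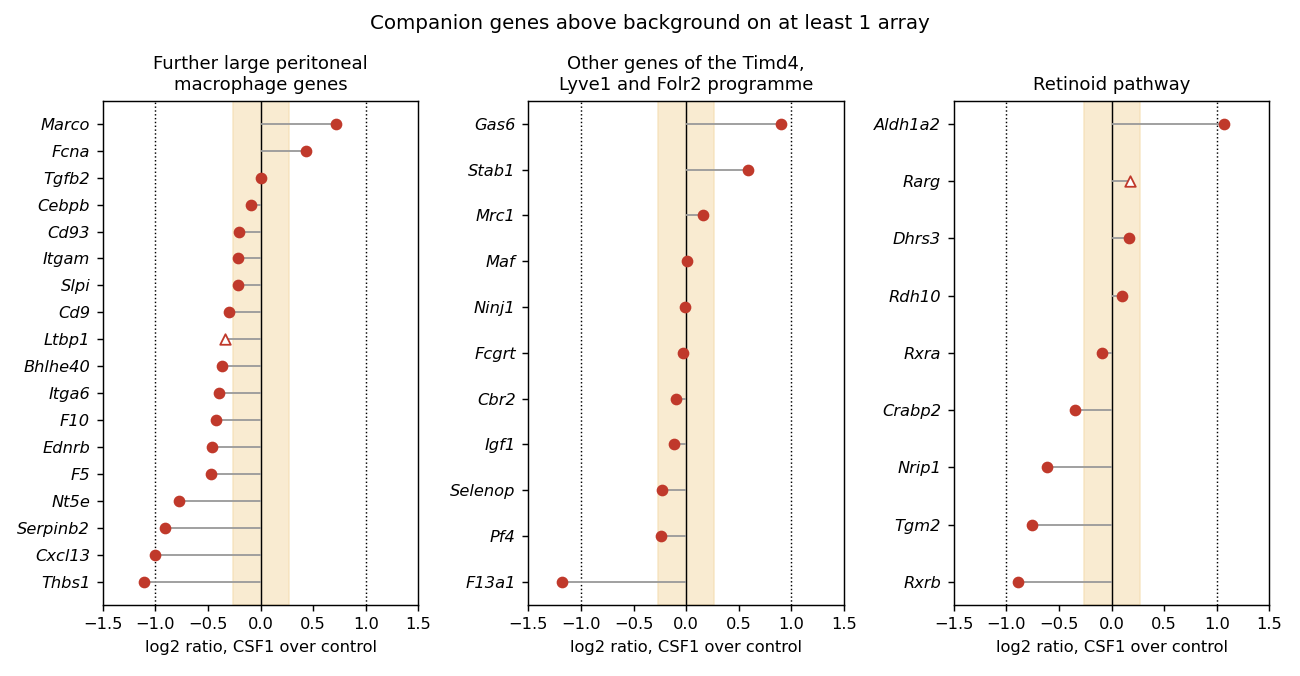
Log2 ratio of CSF1 over control for genes above background on at least 1 array in 3 lists (1 point per gene, its brightest probe set; open triangles are bounds; the band is 1 pooled SD of 0.27, dotted lines 2-fold). *Thbs1*, *Cxcl13* and *F13a1* lie at or beyond 2-fold lower and *Aldh1a2* beyond 2-fold higher, while most of the left-hand list lies left of 0.

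The label of macrophages was checked with general markers. All 11 general macrophage marker genes analysed were above background on both arrays, with summed levels of 173321 units on the CSF1 array and 209462 units on the control array and a median log2 ratio of -0.21 (-0.051 after quantile normalization). *Csf1r* had 18697 units on the CSF1 array and 23704 units on the control array. *Mertk*, a receptor for apoptotic cells, was 1.68-fold lower, *Cd68* 1.33-fold lower and *Lyz2* 1.29-fold lower, while *Spi1*, the gene of PU.1, was 1.32-fold higher, *Aif1* 1.10-fold and *Cd14* 1.03-fold higher. The members, of which 5 were higher and 4 lower, lay in samples in which several macrophage markers were slightly lower on the CSF1 array. Whether this had a part in the members' ratios was not tested. In such bulk samples, fewer cells of a type and less RNA per cell cannot be told apart.

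Genes of small peritoneal and monocyte-derived macrophages were measured in both samples. The MHC class II gene *H2-Aa* had 11356 units on the CSF1 array and 14162 units on the control array, and *H2-Ab1* had 4424 units on the CSF1 array and 4767 units on the control array. Of 15 genes analysed, 11 were measured, and 10 of these were below 0, beside 49.2% of all measured genes. *Plac8* was the exception at 0.28, and the median was -0.25, beside 0.01 over all. Of the 7 above background on both arrays, *Fn1*, *H2-Eb1*, *Itgax*, *H2-Ab1* and *Cd74* had ratios within the pooled SD on their brightest probe sets. *Irf4*, *Ccr2*, *Clec10a* and *Retnla* were above background on the control array only, at least 1.56-fold, 1.37-fold, 1.26-fold and 1.10-fold lower on the CSF1 array. *Ccr2*, the chemokine receptor gene of inflammatory monocytes, had 85.2 units on the CSF1 array and 241 units on the control array on that probe set. Its 3 other probe sets and the other of *Irf4* were below background on both arrays.

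Several members are also expressed by other cells that a lavage can hold. The fibroblast genes *Col1a1*, *Col1a2*, *Col3a1* and *Dcn* were high on both arrays. *Pdgfra*, *Lum* and *Pdgfrb* stood nearer to background, at 5.88, 3.69 and 3.23 times its level on the CSF1 array, and *Dpt* was not above it. Summed levels were 65042 units on the CSF1 array and 51457 units on the control array, mostly from *Col3a1* and *Col1a2*. Of 8 fibroblast genes, 7 were measured, all 7 above 0 beside 50.8% of all measured genes, with a median log2 ratio of 0.32. Among them *Pdgfrb*, *Dcn*, *Col3a1* and *Pdgfra* were 1.71-fold, 1.51-fold, 1.31-fold and 1.25-fold higher, although the 2 measured probe sets of *Pdgfra* disagreed (mean log2 ratio -0.13 ± 0.63, SD), as did those of *Col1a1* (-0.063 ± 0.26), so that by the mean of their probe sets 2 of the 7 were below 0. *Prg4*, which such cells can express, was lower, and *Aldh1a2*, which stromal cells can express too, was higher; the part of these cells in either ratio was not tested. Mesothelial genes were at or near background: 3 of 10 were measured, summed levels were 1348 units on the CSF1 array and 1002 units on the control array, and *Msln* and *Krt19* were not above background. *Upk3b* and *Upk1b* were below it on their brightest probe set, but another probe set of each was above it on the CSF1 array only. For *Upk3b* it had 187 units on the CSF1 array and 9.38 units on the control array, and for *Upk1b* 217 units on the CSF1 array and 51.3 units on the control array.

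For *Selp*, *Icam2* and *Lyve1*, the defining endothelial genes *Pecam1* and *Cdh5* were not above background on either array. *Tek*, *Tie1*, *Prox1*, *Emcn* and *Esam* were not above it either. Of 12 endothelial genes, 5 were measured, all below 0 beside 49.2% of all measured genes. Summed levels were 14289 units on the CSF1 array and 15745 units on the control array, mostly from *Pdpn*. *Pdpn* alone had 13000 units on the CSF1 array and 14438 units on the control array. Its log2 ratio of -0.15 and that of *Flt4*, -0.04, lay within the pooled SD between probe sets. The endothelial genes *Cldn5* and *Kdr* were above background on the control array only, at least 1.45-fold and 1.26-fold lower, and *Vwf* was 1.45-fold lower. Of 6 platelet genes, *Pf4* and *Itga2b* were measured, with summed levels of 7353 units on the CSF1 array and 8755 units on the control array, while *Gp9*, *Gp6*, *Gp1bb* and *Ppbp* were not above background. *Pf4* is also a macrophage gene.

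**Figure D4:**
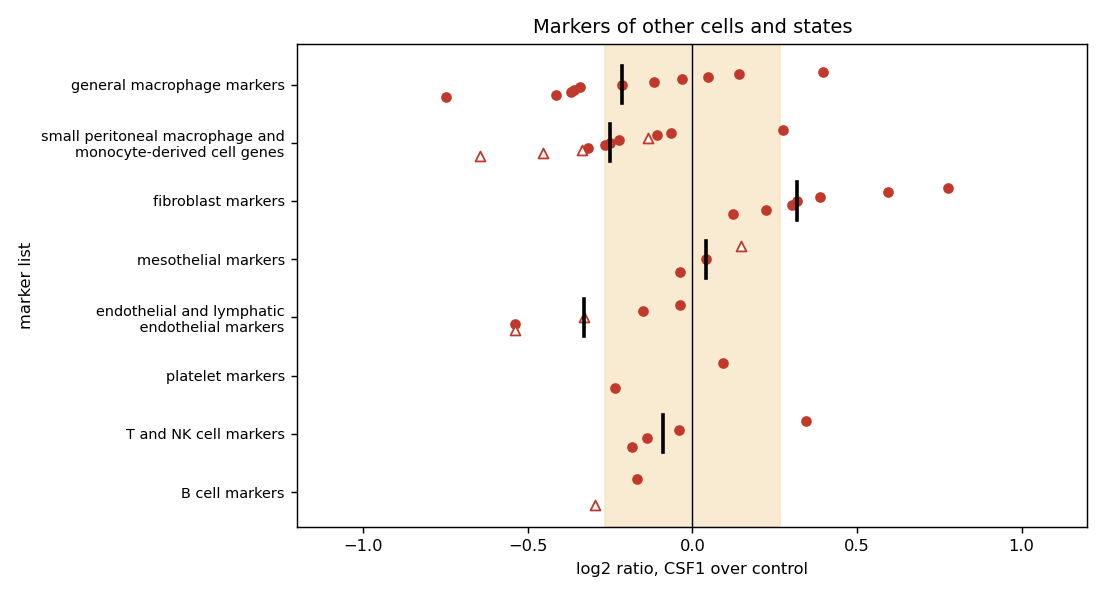
Log2 ratio of CSF1 over control for measured genes of 8 marker lists (1 point per gene; open triangles are bounds; black bars are medians where at least 3 genes were measured; the band is 1 pooled SD of 0.27). Fibroblast genes lie right of 0, with a median of 0.32, and most genes of general macrophages and of small peritoneal macrophages lie left of it, with medians of -0.21 and -0.25.

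Markers of other blood cells were measured in part. Of B-cell genes 2 of 5 were measured, with *Cd79a* not above background and *Cd22* at 2656 units on the CSF1 array and 2987 units on the control array, and of T and NK cell genes 4 of 6, with a median log2 ratio of -0.090. Mast cell genes were measured for 3 of 5, all below 0 beside 49.2% of all measured genes, with a median of -0.42. Neutrophil, eosinophil and dendritic cell genes were measured for 2 of 5, 1 of 3 and 2 of 6; the neutrophil collagenase gene *Mmp8* was 2.10-fold lower, *S100a8* had 5487 units on the CSF1 array and 4838 units on the control array, and *S100a9* was not above background.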

How the data were processed

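Affymetrix Mouse Genome 430 2.0 arrays were used for 1 CSF1 sample and 1 control sample, per the labels' protocols. The authors deposited 1 linear intensity per probe set and array, analysed in GeneSpring 6.2 according to the design text of the series. The summarization method and detection calls are not given in the sources used here. No further scaling was applied before log2 was taken, and values under the background level were raised to it. The background level was the 90th percentile, over both arrays, of probe sets of 84 genes found of 90 of unrelated tissues. Of the 45101 probe sets, 34945 carried 1 gene symbol in the platform annotation. The Entrez IDs of all 10 members matched the RefSeq gene table. In the 16 companion and marker lists each gene was represented by the brightest of its probe sets (mean log2 over both arrays), and named genes were the members, the up to 4 list genes with the largest absolute ratio, defining markers, and genes spelled out where a count was small, some of them chosen after their values were seen. Members and lists were chosen with earlier results of these data known. No test was possible with 1 array per group. The alternatives tried were centring on the spikes or the median, loess (span 0.3), quantile normalization, other background levels (95th percentile, median of all values, none, and, chosen after seeing the data, without Afp, Mbp and Oxt), fold thresholds of 1.5 and 3, the mean of all probe sets and probe sets not marked as shared. The procedure was tested on simulated data, in which changes were set only in genes far above background. That test does not cover levels like those of most members. The tools were Python 3.11.15 with pandas 2.3.3, numpy 2.4.6, statsmodels 0.14.6, scipy 1.17.1 and matplotlib 3.10.9. Some genes of the lists are not reported here.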

Additional observations from a re-analysis of the deposited data

How the results depend on the processing

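No paired analysis was possible because each group had 1 array. *Folr2*, *Vsig4*, *Rarb* and *Selp* had log2 ratios above 0, and *Prg4* and *Icam2* below 0, under each of the 8 alternatives that recompute a ratio, with ranges of 0.58 to 0.89, 0.44 to 0.75, 0.23 to 0.53, 0.12 to 0.42, -0.91 to -0.62 and -0.46 to -0.15. *Timd4*, above background under 7 of them but not at the 95th percentile, ranged from 0.15 to 0.41. The ends nearest to the higher side came from centring on the spikes (for *Timd4*, from a lower or no background level), which put the median of all measured genes at 0.29. That centring gave *Gata6* 0.07 and *Adgre1* 0.18, and moved the medians of the lists to -0.085 (further large peritoneal macrophage genes), 0.27 (other TIM-4, LYVE1 and FOLR2 programme genes), 0.20 (retinoid), 0.030 (small peritoneal macrophages), 0.080 (general macrophages), 0.61 (fibroblasts), -0.048 (endothelium), 0.20 (T and NK cells) and -0.12 (mast cells). The retinoid median, -0.093 as reported, was -0.35 with the mean of all probe sets or only those not marked as shared and 0.13 with no background level, and that of general macrophage markers was -0.051 after quantile normalization. The median of the GATA list, 0.53 as reported, was 0.13 with background at the median of all values, and that of the endothelial list was 0.24 with no background level. The number of member probe sets past the threshold was 1 higher and 1 lower at 1.5-fold, and 2 higher and 1 lower with no background level, where the added ones (*Gata6* 1443081_at, *Selp* 1440173_x_at and *Lyve1* 1429379_at) lie below background on both arrays. It was 0 and 0 under the other 9 alternatives. Between 8 and 10 member probe sets were above background on both arrays, and between 8 and 12 on at least 1. Over all measured genes, 65 were 2-fold higher and 53 lower as reported, 44 and 33 with background at the 95th percentile (241.54 units), 195 and 197 at the median of all values, 1743 and 1925 with none, 276 and 18 centred on the spikes, 103 and 78 without Afp, Mbp and Oxt, and 79 and 93 with the mean of all probe sets. Signal over background limits what can be said of *Timd4*, *Lyve1* and the second *Gata6* probe set.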
